A study of Homo sapiens with 12 samples.

Results

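The genes described here encode the machinery that brings nuclear-encoded proteins into mitochondria. They were taken as every gene name of the deposited transcript table that starts with TIMM, TOMM, SAMM, PAM, GRPEL or MTX followed by a number, together with HSPA9, HSPD1, HSPE1, DNAJC19, CHCHD4, GFER, PMPCA and PMPCB. This gave 39 of the 56537 gene names that have a transcript of class code = (matching an annotated transcript) or j (sharing a splice junction with one). A gene's level was the sum of its transcripts in fragments per kilobase per 1000000 mapped fragments (FPKM), and 38 of the 39 were above 0.5 FPKM in at least 3 libraries. The exception was TOMM20L, which was listed at 0 in every library but 1, where it was at 0.12 FPKM.

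The cells were HCT116, an established line of human colorectal cancer cells, which had been kept in 21% oxygen (0 h) or moved to 1% oxygen for 1 h, 2 h or 24 h. At each of the 4 times 3 libraries of polyadenylated RNA were sequenced, 12 in all, and the labels name no genetic change or agent beside oxygen in any group. The paper's supplement calls the replicates biological, without saying how their cultures were kept apart, and p-values measure the spread between them. Per the labels, low oxygen began 24 h after the cells were plated; whether 0 h cells were collected at that point or later is not stated in the sources used here. If time in culture differed, an effect of longer culture and one of low oxygen cannot be told apart at 24 h. In bulk RNA, fewer cells with a transcript and less of it per cell cannot be told apart either.

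Mitochondria make only a handful of their own proteins, and the rest are imported from the cytosol as precursors. The TOM complex is the gate of the outer membrane. Behind it the SAM complex inserts barrel proteins into the outer membrane, small TIM chaperones escort hydrophobic precursors, the TIM22 and TIM23 channels cross the inner membrane, and a motor built around the chaperone HSPA9 pulls precursors into the matrix, where targeting signals are cut off and the chaperonin HSPD1 with its lid HSPE1 folds the product.

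Most import genes fell at 24 h. By limma on log2(FPKM + 0.5), in which the 12 libraries share 1 estimate of the spread and p-values are adjusted over 16680 genes, 31 of 38 fell and 0 rose at an adjusted p under 0.01. Over all genes the shares were 23.2% lower and 18.3% higher. Of the 31, 20 fell by more than 2-fold, which 9.51% of all genes did. The median log2 fold change of the 38 genes was -1.01, against -0.05 over all genes tested. The log2 scale with a pseudocount understates changes of genes with low FPKM.

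The 3 libraries at 24 h all lay below the 3 at 0 h for 33 of the 38 genes, all above them for 1 (TOMM20), and overlapped for 4. Over all genes tested 32.8% lay wholly below and 27.6% wholly above. The summed level of the 39 genes was 5177, 4701 and 4605 FPKM at 0 h and 2417, 2536 and 2268 at 24 h, so the mean at 24 h was 49.9% of that at 0 h. HSPD1 and HSPE1 carried 41.7% ± 0.65 (SD, n = 3) of this sum at 0 h and 35.3% ± 1.5 at 24 h.

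**Figure D1:**
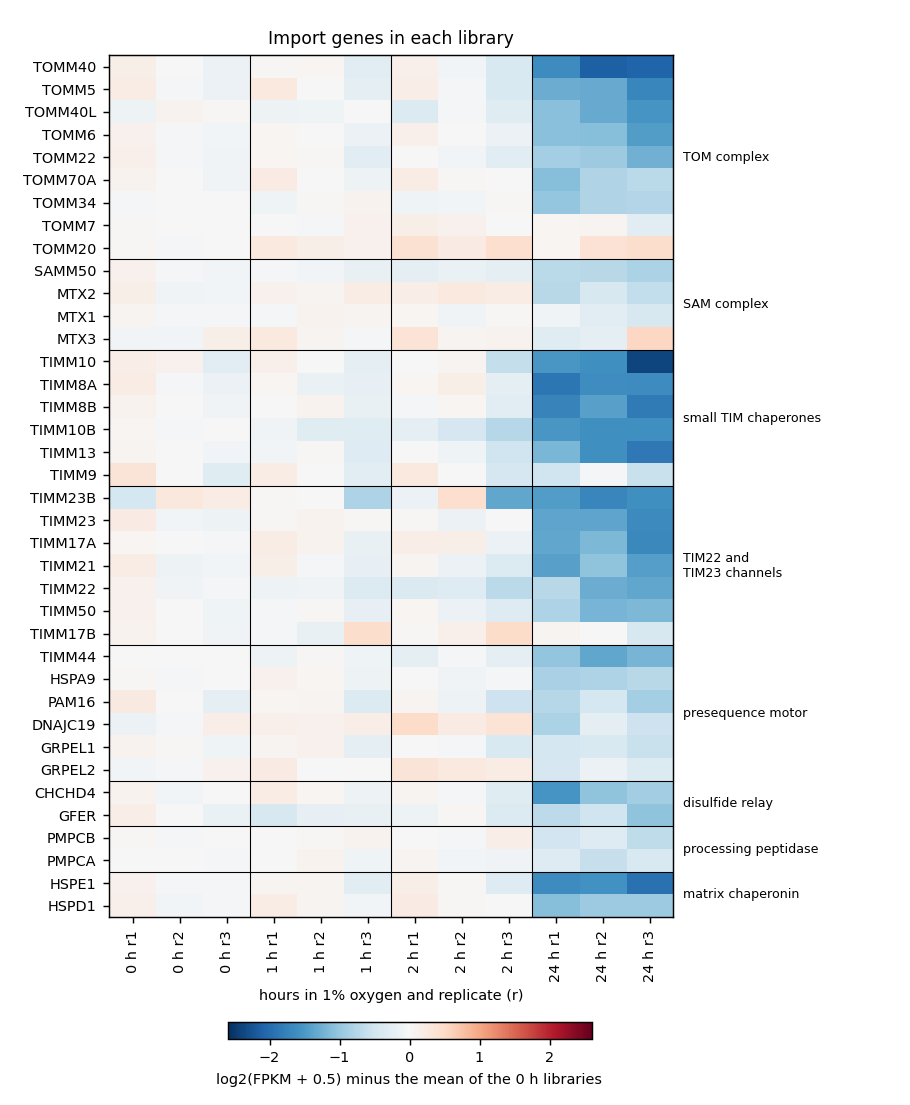
Each cell is the log2(FPKM + 0.5) of an import gene in 1 library minus its mean over the 0 h libraries, with genes in rows by role and libraries in columns by hours in 1% oxygen. The columns at 1 h and 2 h are close to 0 for most genes, and those at 24 h are below 0 for all but a few, among them TOMM20 and TOMM7.

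Sequences upstream of 3 transcription starts are shown because they hold the same 6 letters, CACGTG (the E-box), in front of genes of both kinds: the folding pair HSPE1 and HSPD1 and the motor chaperone HSPA9, which fell at 24 h, and the receptor TOMM20, which did not pass in that direction. The sequences are from RefSeq promoter windows on GRCh38.p14, the deposited table being on hg19, and each is given 5′ to 3′ on the gene's strand, in lower case with the E-box in capitals. HSPE1 and HSPD1 start 105 bases apart on opposite strands, and the first sequence, with 1 E-box, lies between both starts.
HSPE1, chr2:197500310-197500378, plus strand: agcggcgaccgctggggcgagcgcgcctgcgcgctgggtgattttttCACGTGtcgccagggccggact
HSPA9, chr5:138575402-138575467, minus strand: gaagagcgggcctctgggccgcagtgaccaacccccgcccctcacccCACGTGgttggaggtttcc
TOMM20, chr1:235128953-235129052, minus strand: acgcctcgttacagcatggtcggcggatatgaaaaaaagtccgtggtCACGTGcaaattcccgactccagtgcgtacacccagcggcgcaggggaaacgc
The E-box begins 22 bases before the start of HSPE1, 19 before that of HSPA9 and 168 before that of TOMM20.

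Windows of 250 bases before to 50 after a start were matched for 36 of the 39 genes, 40 windows in all; TOMM70A was matched through its synonym TOMM70. On either strand, CACGTG was in 17.5% of the 40 windows and in 7.26% of all 35116 windows of this length. It was in the windows of 7 genes, the 4 named above with MTX3, TIMM10 and TIMM8A; the windows of HSPE1 and HSPD1 overlap by 204 bases, so their 1 shared E-box is counted in both. The letters CCGGAAG, a core bound by ETS-family factors, were in 35.0% of member windows and 10.3% of all. ACGTG, the core bound by hypoxia-inducible factors, which every E-box also contains, was in 32.5% and 21.4%. GCATGCG was in 12.5% and 3.91%, and TATAAA was in 0 of 40 member windows and 11.5% of all. These shares were not tested, and a match is a run of letters, not a bound site. As a description, the median log2 fold change at 24 h was -1.0 for the 7 genes with CACGTG and -0.94 for those without. It was -1.30 with ACGTG and -0.80 without, -0.94 with CCGGAAG and -1.0 without, and -0.69 with GCATGCG and -1.01 without.

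Before 24 h the import genes moved little. At 1 h 0 of 38 passed in either direction, 0 had an unadjusted p under 0.05, and the log2 fold changes ranged from -0.27 (GFER) to 0.17 (TOMM20). Over all genes 0.006% were higher and 0% lower. At 2 h again 0 of 38 passed, beside 0.024% of all genes higher and 0% lower. An unadjusted p under 0.05 was reached by 0 of 38 at 1 h, beside 769 of all 16680 genes, and by 6 of 38 at 2 h (3 up and 3 down), a share close to the 2547 of 16680 over all genes. TOMM20 was at a log2 fold change of 0.35 ± 0.11 (SE; adjusted p = 0.19) and TIMM10B at -0.48 ± 0.13 (adjusted p = 0.14). From 2 h to 24 h 29 of 38 fell and 0 rose, against 20.3% of all genes lower and 16.3% higher. With each library rescaled to TPM (every library summing to the same total), 0 of 38 were lower than at 2 h by this rule, while 28 were lower than at 0 h. The median log2 fold change from 2 h to 24 h was -0.65 with TPM and -0.91 without it, or -0.77 and -0.88 relative to the median of all genes. With TPM computed after dropping transcripts under 300 bases 31 were lower than at 2 h, and with median-of-ratios scaling 29. Without any rescaling, falls of more than 2-fold from 2 h to 24 h were made by 16, against 7.28% of all genes.

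The TOM complex is described first. Its channel is TOMM40, its receptors are TOMM20, TOMM22 and TOMM70A, and TOMM5, TOMM6 and TOMM7 are small subunits around the channel. Of its 9 tested genes 7 fell and 2 did not pass. Values are in FPKM for replicates 1, 2 and 3 in that order.

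TOMM40, the channel itself, had FPKM of 141, 127 and 113 at 0 h, 129, 132 and 104 after 1 h, 139, 121 and 96.7 after 2 h, and 40.4, 28.8 and 29.5 after 24 h. The 24 h libraries were far below all 9 others, with no overlap. TOMM40 fell by 1.95 ± 0.16 on the log2 scale (SE; limma, adjusted p = 2.1e-06), the largest fall of the 38 genes in this fit. TOMM40L, a paralogue of the channel at a far lower level, was at 5.20, 6.14 and 5.82 FPKM at 0 h, 5.16, 5.28 and 5.75 at 1 h, 4.34, 5.56 and 4.48 at 2 h, and 2.42, 1.99 and 1.64 at 24 h. TOMM40L fell by 1.31 ± 0.15 on the log2 scale (adjusted p = 1.6e-05).

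TOMM20, the receptor for cleavable targeting signals, had FPKM of 98.2, 93.2 and 96.5 at 0 h, 115, 106 and 103 after 1 h, 126, 111 and 130.3 after 2 h, and 99.5, 124 and 133 after 24 h. The lowest 24 h library was just above the highest 0 h library, and the 2 h libraries were all above the 0 h ones. Its log2 fold change of 0.29 ± 0.11 at 24 h did not pass (adjusted p = 0.037), and without 24 h replicate 1 it passed upwards at 0.42 (adjusted p = 0.0031). Its sign turned with each library rescaled to TPM (-0.57), a scaling that also moved the median of all genes to -0.78. The ratio of TOMM20 to TOMM40, both per length, was 0.70, 0.73 and 0.85 at 0 h and 2.47, 4.30 and 4.50 at 24 h. At 1 h and 2 h it was 0.803 to 0.996, except for 1.35 in 2 h replicate 3. TOMM20 was thus below the channel's level in every 0 h library and above it in every 24 h library.

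TOMM22, the central receptor, was at 174, 157 and 149.7 FPKM at 0 h, 165, 164 and 133 at 1 h, 162, 152 and 130.2 at 2 h, and 87.0, 83.4 and 66.9 at 24 h. TOMM70A, the receptor for carrier precursors, had FPKM of 47.4, 44.6 and 41.6 at 0 h, 51.8, 44.2 and 40.5 after 1 h, 50.9, 45.4 and 45.0 after 2 h, and 20.5, 25.6 and 27.4 after 24 h. TOMM34, a cytosolic co-chaperone grouped here with the complex, was at 40.6, 41.4 and 41.7 FPKM at 0 h, 38.0, 42.3 and 44.3 at 1 h, 38.0, 39.4 and 42.4 at 2 h, and 20.2, 23.6 and 24.2 at 24 h. For all of them the 0 h and 24 h libraries did not overlap. TOMM22 fell by 1.02 ± 0.13 on the log2 scale (adjusted p = 3.7e-05). TOMM70A fell by 0.86 ± 0.12 on the log2 scale (adjusted p = 0.0001). TOMM34 fell by 0.85 ± 0.10 on the log2 scale (adjusted p = 1.6e-05).

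Of the 3 small subunits 2 fell. TOMM6 had FPKM of 379, 346 and 334 at 0 h, 366, 349.8 and 319 after 1 h, 384, 356 and 315 after 2 h, and 167, 164 and 128 after 24 h. TOMM5 was at 266, 227 and 209.8 FPKM at 0 h, 277, 231 and 194 at 1 h, 261, 227 and 178 at 2 h, and 94.6, 94.2 and 71.3 at 24 h. TOMM7 had FPKM of 261, 255 and 253 at 0 h, 255, 252 and 278 after 1 h, 283, 276 and 254 after 2 h, and 264, 271 and 211 after 24 h. TOMM5 and TOMM6 at 24 h were less than their lowest 0 h value in every library, whereas the TOMM7 groups overlapped. TOMM6 fell by 1.21 ± 0.12 on the log2 scale (adjusted p = 5.5e-06). TOMM5 fell by 1.43 ± 0.17 on the log2 scale (adjusted p = 2.5e-05). TOMM7 had a log2 fold change of -0.05 ± 0.10 (adjusted p = 0.69; 95% interval -0.27 to 0.17). Of the FPKM of TOMM7, 98.4% was on transcripts of class code j, so its level rests on assembled rather than annotated models.

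**Figure D2:**
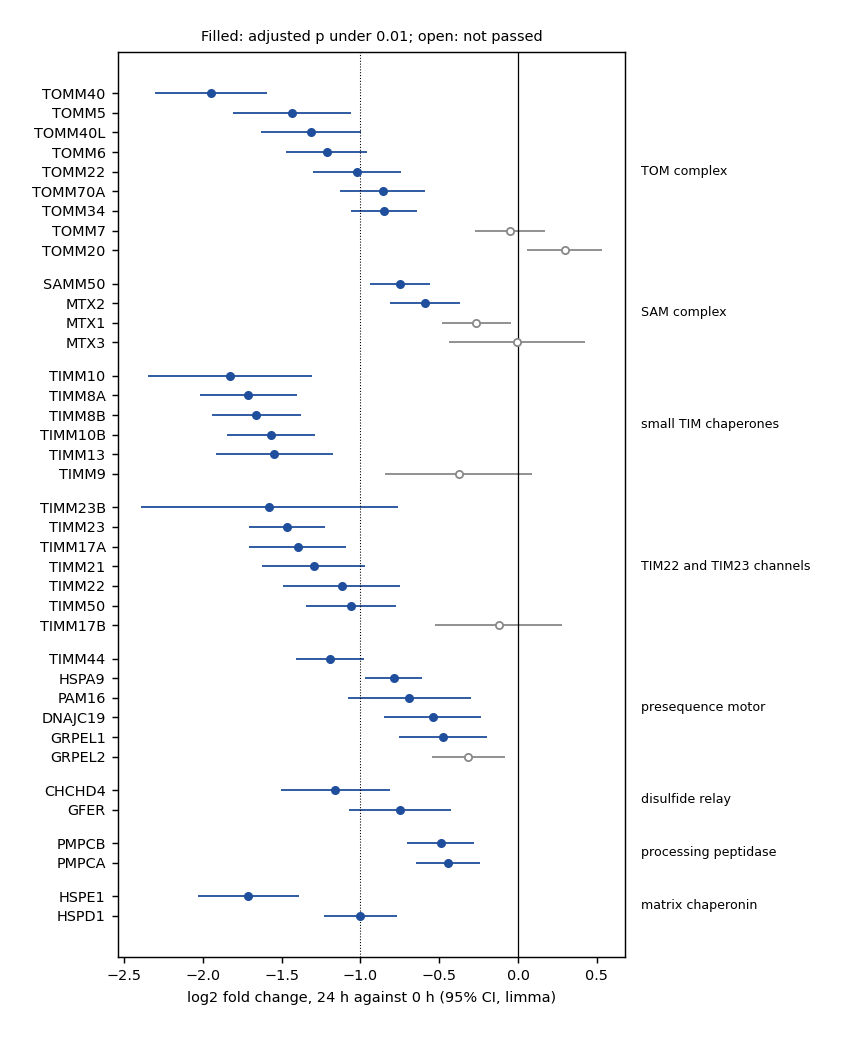
Points are log2 fold changes at 24 h against 0 h for 38 import genes by role, with 95% confidence intervals from limma; filled points passed an adjusted p of 0.01, and the dotted line marks a 2-fold fall. All filled points lie below 0, from -1.95 for TOMM40 to -0.44 for PMPCA.

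The SAM complex, with the barrel protein SAMM50 and the metaxins MTX1, MTX2 and MTX3, had a median log2 fold change of -0.43, the smallest in size of the 8 role groups. Of its 4 genes 2 fell, and neither by more than 2-fold. SAMM50 was at 38.7, 34.5 and 34.1 FPKM at 0 h, 34.3, 34.2 and 31.2 at 1 h, 30.1, 31.7 and 30.3 at 2 h, and 21.9, 21.3 and 19.9 at 24 h. MTX2 had FPKM of 46.0, 38.4 and 39.3 at 0 h, 44.5, 43.2 and 46.9 after 1 h, 46.4, 48.9 and 47.3 after 2 h, and 24.8, 30.7 and 26.1 after 24 h. In both the groups did not overlap. SAMM50 fell by 0.75 ± 0.09 on the log2 scale (adjusted p = 2.1e-05). MTX2 fell by 0.59 ± 0.10 on the log2 scale (adjusted p = 0.00038). The other two did not pass: MTX1 was at a log2 fold change of -0.26 ± 0.10 (adjusted p = 0.041), and without 24 h replicate 1 it fell by 0.36 (adjusted p = 0.0078). MTX3 ranged from 8.04 to 9.45 FPKM at 0 h and from 6.76 to 12.6 at 24 h, with its log2 fold change at -0.01 ± 0.20. It was at -0.47 with transcripts of class code = alone and at -0.77 with TPM, and passed in neither.

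The small TIM chaperones, which form rings in the space between both membranes, had the lowest median log2 fold change of the 8 role groups, -1.62. Of 6 genes 5 fell, each by more than 2-fold. TIMM10 was at 67.3, 64.4 and 48.8 FPKM at 0 h, 65.3, 58.8 and 50.01 at 1 h, 60.4, 62.7 and 38.9 at 2 h, and 20.6, 19.5 and 11 at 24 h. TIMM8A had FPKM of 19.2, 16.0 and 14.9 at 0 h, 17.3, 14.6 and 14.3 after 1 h, 17.3, 18.6 and 13.9 after 2 h, and 4.17, 5.07 and 4.98 after 24 h. TIMM8B was at 60.1, 55.4 and 53.0 FPKM at 0 h, 55.7, 59.6 and 49.2 at 1 h, 54.5, 57.7 and 46.0 at 2 h, and 16.4, 20.9 and 15.4 at 24 h. In each, the highest 24 h library was below the lowest 0 h library. TIMM10 fell by 1.83 ± 0.24 on the log2 scale (adjusted p = 5e-05). TIMM8A fell by 1.71 ± 0.14 on the log2 scale (adjusted p = 1.8e-06). TIMM8B fell by 1.66 ± 0.13 on the log2 scale (adjusted p = 1.2e-06).

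TIMM13, the partner of TIMM8A in its ring, had FPKM of 84.5, 80.2 and 76.7 at 0 h, 76.3, 82.2 and 63.2 after 1 h, 79.4, 73.9 and 55.8 after 2 h, and 34.9, 26.3 and 22.0 after 24 h. TIMM10B, a subunit of the TIM22 complex, was at 18.4, 17.2 and 17.9 FPKM at 0 h, 16.6, 14.1 and 14.3 at 1 h, 15.0, 13.0 and 10.4 at 2 h, and 5.90, 5.53 and 5.58 at 24 h. Neither overlapped between 0 h and 24 h. TIMM13 fell by 1.55 ± 0.17 on the log2 scale (adjusted p = 1.4e-05). TIMM10B fell by 1.57 ± 0.13 on the log2 scale (adjusted p = 1.7e-06). TIMM9, which forms a ring with TIMM10, is the exception. TIMM9 had FPKM of 53.0, 41.8 and 33.6 at 0 h, 48.1, 42.3 and 34.8 after 1 h, 50.3, 42.0 and 31.1 after 2 h, and 29.1, 41.3 and 27.9 after 24 h. Its groups overlapped, and its log2 fold change of -0.38 ± 0.21 did not pass (adjusted p = 0.15; 95% interval -0.84 to 0.09).

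Among the inner-membrane channels 6 of 7 fell, all by more than 2-fold. TIMM17A, a core subunit of the TIM23 channel, was at 129.8, 124 and 121 FPKM at 0 h, 143, 133 and 109 at 1 h, 141, 139 and 113 at 2 h, and 48.9, 55.1 and 38.5 at 24 h. TIMM17B, its paralogue, had FPKM of 9.54, 8.92 and 8.30 at 0 h, 8.65, 7.76 and 12.3 after 1 h, 9.10, 9.83 and 12.6 after 2 h, and 9.32, 8.80 and 6.55 after 24 h. The first dropped in every library and the second overlapped. TIMM17A fell by 1.40 ± 0.14 on the log2 scale (adjusted p = 7.7e-06). TIMM17B was at -0.12 ± 0.18 (adjusted p = 0.6), with the sign turned when 24 h replicate 3 was left out (0.02). The ratio of TIMM17A to TIMM17B was 13.6, 13.9 and 14.5 at 0 h and 5.25, 6.27 and 5.88 at 24 h. At 1 h and 2 h it was 8.80 and 8.93 in the replicate 3 libraries and 14.1 to 17.1 in the others.

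TIMM23, the pore of the channel, and TIMM23B are near-identical copies, and how fragments were divided between them is uncertain. TIMM23 was at 95.8, 79.1 and 75.3 FPKM at 0 h, 84.4, 88.5 and 84.8 at 1 h, 84.7, 74.7 and 81.8 at 2 h, and 31.7, 31.8 and 25.9 at 24 h. TIMM23B had FPKM of 27.4, 45.7 and 43.4 at 0 h, 38.8, 37.4 and 21.5 after 1 h, 33.9, 51.3 and 14.5 after 2 h, and 13.5, 11.4 and 12.3 after 24 h. At 0 h replicate 1 had the most TIMM23 and the least TIMM23B. Their sum was 123, 125 and 119 FPKM at 0 h and 45.3, 43.2 and 38.2 at 24 h. At 0 h its SD (3.16) was below those of TIMM23 (10.9) and TIMM23B (9.96), and at 24 h (3.64) it was above both (3.39 and 1.06). TIMM23 fell by 1.47 ± 0.11 on the log2 scale (adjusted p = 1.1e-06). TIMM23B fell by 1.58 ± 0.37 on the log2 scale (adjusted p = 0.0034). Without 0 h replicate 2, 0 h replicate 3, 24 h replicate 2 or 24 h replicate 3 the adjusted p of TIMM23B was 0.010 to 0.016. Its call was also lost without a filter on low genes and with class code = alone (-1.51), and held in 13 of 19 alternatives.

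TIMM50, the receptor of the TIM23 channel, was at 78.8, 73.8 and 67.8 FPKM at 0 h, 72.2, 75.4 and 63.0 at 1 h, 76.1, 65.6 and 58.3 at 2 h, and 41.9, 31.5 and 32.2 at 24 h. TIMM21, which links it to the outer gate and the respiratory chain, had FPKM of 46.9, 37.4 and 39.0 at 0 h, 45.6, 39.2 and 35.1 after 1 h, 43.1, 37.0 and 31.7 after 2 h, and 15.1, 19.6 and 14.7 after 24 h. TIMM22, the pore for carrier proteins, was at 12.6, 10.9 and 11.5 FPKM at 0 h, 10.6, 10.9 and 8.97 at 1 h, 8.78, 9.08 and 6.94 at 2 h, and 6.87, 4.46 and 4.25 at 24 h. All 3 were lower in every 24 h library than in any 0 h library. TIMM50 fell by 1.06 ± 0.13 on the log2 scale (adjusted p = 3.5e-05). TIMM21 fell by 1.30 ± 0.15 on the log2 scale (adjusted p = 2.1e-05). TIMM22 fell by 1.12 ± 0.17 on the log2 scale (adjusted p = 0.00016).

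**Figure D3:**
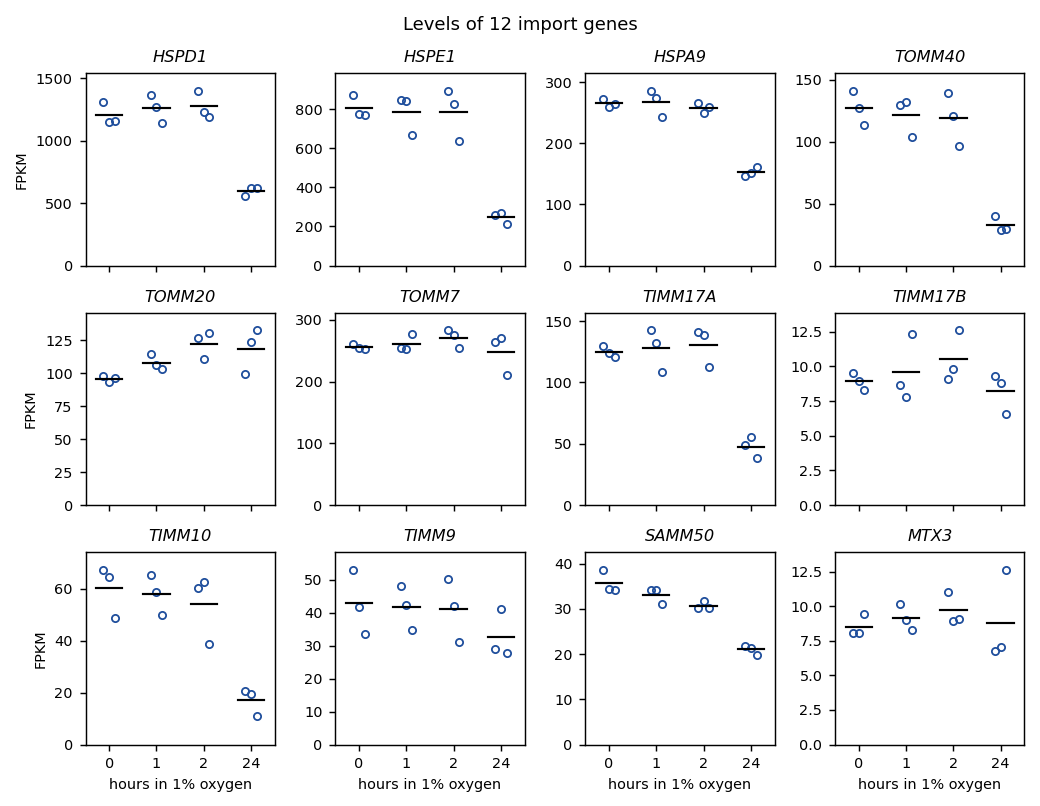
Circles are FPKM in single libraries and lines are means of 3 at each time, for 12 import genes; every vertical axis starts at 0. HSPD1, HSPE1, HSPA9, TOMM40, TIMM17A, TIMM10 and SAMM50 separate at 24 h, whereas TOMM7, TIMM17B, TIMM9 and MTX3 overlap with 0 h.

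In the presequence motor 5 of 6 genes fell, but only TIMM44 by more than 2-fold. HSPA9, the motor's HSP70 chaperone and its highest member, had FPKM of 272, 259 and 265 at 0 h, 286, 274 and 243 after 1 h, 266, 249.7 and 259 after 2 h, and 147, 152 and 161 after 24 h. TIMM44, which anchors it to the channel, was at 65.7, 65.7 and 66.7 FPKM at 0 h, 60.2, 67.5 and 61.1 at 1 h, 55.8, 64.1 and 54.9 at 2 h, and 32.0, 25.7 and 28.4 at 24 h. The groups were far apart in both. HSPA9 fell by 0.79 ± 0.08 on the log2 scale (adjusted p = 1e-05). TIMM44 fell by 1.19 ± 0.10 on the log2 scale (adjusted p = 1.9e-06).

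PAM16, a regulator of the motor, had FPKM of 75.7, 65.0 and 54.7 at 0 h, 66.7, 68.0 and 50.4 after 1 h, 67.7, 59.1 and 44.5 after 2 h, and 38.4, 47.2 and 34.9 after 24 h. DNAJC19, a J-protein of the motor, was at 12.9, 14.1 and 16.1 FPKM at 0 h, 15.7, 15.4 and 16.3 at 1 h, 20.02, 16.6 and 18.4 at 2 h, and 7.83, 11.9 and 9.72 at 24 h. GRPEL1, the nucleotide exchange factor, had FPKM of 108, 103 and 94.3 at 0 h, 106, 111 and 85.4 after 1 h, 103, 99.4 and 76.7 after 2 h, and 73.9, 77.0 and 68.0 after 24 h. These 3 genes lay closest to the threshold. PAM16 fell by 0.69 ± 0.18 on the log2 scale (adjusted p = 0.0061). DNAJC19 fell by 0.54 ± 0.14 on the log2 scale (adjusted p = 0.0062). GRPEL1 fell by 0.48 ± 0.13 on the log2 scale (adjusted p = 0.0075). Leaving out single libraries ended these calls: for GRPEL1 any of the 6 (adjusted p 0.011 to 0.032), for DNAJC19 0 h replicate 2 or 3 or 24 h replicate 1 or 3 (0.015 to 0.030), and for PAM16 0 h replicate 1 or 2 or 24 h replicate 1 or 3 (0.020 to 0.031). Of the FPKM of GRPEL1, 64.5% was on transcripts of class code j, and its call was also lost with class code = alone (-0.40). Without a filter on low genes none of these 3 calls passed. The call of GRPEL1 held in 9 of 19 alternatives, that of DNAJC19 in 11 and that of PAM16 in 14. GRPEL2, the second exchange factor, was at -0.32 ± 0.11 (adjusted p = 0.024) and did not pass, although its groups did not overlap. The readthrough name CORO7-PAM16, not counted with PAM16, was at 1.28 FPKM on average at 0 h and 0.888 at 24 h.

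The disulfide relay, CHCHD4 and its oxidase GFER, traps small cysteine-rich proteins between both membranes. CHCHD4 was at 29.9, 26.7 and 28.1 FPKM at 0 h, 32.1, 29.2 and 25.6 at 1 h, 29.6, 27.4 and 22.4 at 2 h, and 9.48, 13.4 and 14.8 at 24 h. GFER had FPKM of 37.2, 32.7 and 29.3 at 0 h, 24.6, 28.2 and 28.9 after 1 h, 29.8, 33.8 and 25.6 after 2 h, and 20.4, 22.7 and 15.8 after 24 h. Both were lower in all 24 h libraries. CHCHD4 fell by 1.16 ± 0.16 on the log2 scale (adjusted p = 7e-05). GFER fell by 0.75 ± 0.15 on the log2 scale (adjusted p = 0.0011). Of the FPKM of CHCHD4, 45.9% was on transcripts of class code j.

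The processing peptidase, which removes targeting signals, has the subunits PMPCA and PMPCB. PMPCA was at 65.3, 65.1 and 63.2 FPKM at 0 h, 63.9, 68.5 and 59.5 at 1 h, 67.6, 61.8 and 60.5 at 2 h, and 51.0, 42.5 and 48.9 at 24 h. PMPCB had FPKM of 61.2, 58.4 and 60.9 at 0 h, 59.6, 61.7 and 64.4 after 1 h, 60.9, 57.9 and 67.8 after 2 h, and 42.6, 47.8 and 38.1 after 24 h. Neither gene overlapped between 0 h and 24 h, and the falls were the smallest among those that passed, together with GRPEL1. With TPM neither call passed (-1.29 for PMPCA and -1.33 for PMPCB), and both held in the other 18 of 19 alternatives. PMPCA fell by 0.44 ± 0.09 on the log2 scale (adjusted p = 0.0015). PMPCB fell by 0.49 ± 0.10 on the log2 scale (adjusted p = 0.001).

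The matrix chaperonin had the highest summed level of the 8 role groups at every time. At 24 h HSPE1 (mean 247.2 FPKM) was not above TOMM7 (248.6). HSPD1, the barrel, was at 1309, 1149 and 1157 FPKM at 0 h, 1369, 1267 and 1139 at 1 h, 1401, 1230.4 and 1194 at 2 h, and 558, 623 and 623 at 24 h. HSPE1, the lid, had FPKM of 873, 776 and 774 at 0 h, 851, 845 and 669.8 after 1 h, 896, 828 and 639.9 after 2 h, and 261, 269.6 and 211 after 24 h. At 24 h both were lower in every library than in any other library of the study. HSPD1 fell by 1.00 ± 0.11 on the log2 scale (adjusted p = 1.1e-05). HSPE1 fell by 1.71 ± 0.15 on the log2 scale (adjusted p = 2.3e-06). The ratio of HSPE1 to HSPD1 was 0.67, 0.68 and 0.67 at 0 h and 0.47, 0.43 and 0.34 at 24 h. It was lower in every 24 h library than in any 0 h library. At 1 h and 2 h this ratio was 0.59 and 0.54 in the replicate 3 libraries and 0.62 to 0.67 in the others. The readthrough HSPE1-MOB4 was at 16.3 FPKM on average at 0 h and 8.19 at 24 h.

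The noncoding share of a gene's transcripts rose in 1 import gene; other shifts between transcripts were not tested. This share, the part of its FPKM on transcripts that GENCODE types as noncoding (nonsense-mediated decay, retained intron and other types without a defined coding sequence), was tested with limma over 9137 genes, 29 of them import genes. At 24 h 1.36% of all genes had gained and 0.252% had lost noncoding share at an adjusted p under 0.01. TIMM8B gained and 0 import genes lost. Its noncoding share was 41.4%, 35.9% and 34.4% at 0 h and 54.9%, 58.8% and 66.5% at 24 h, a gain of 22.8 percentage points ± 2.9 (SE; limma, adjusted p = 0.0036). Its groups did not overlap. Leaving out 0 h replicate 2, 0 h replicate 3 or 24 h replicate 2 raised the adjusted p to 0.017, 0.019 and 0.013.

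The coding transcript of TIMM8B, ENST00000541231, was at 35.2, 35.5 and 34.7 FPKM at 0 h and at 7.38, 8.604 and 5.16 at 24 h. Its nonsense-mediated decay transcript, ENST00000509359, was at 14.9, 14.7 and 11.4 at 0 h and at 9.0, 12.3 and 7.16 at 24 h. The second was below the first in all 9 libraries up to 2 h and above it in all 3 at 24 h. Both were lower at 24 h on average, the coding one more so. A further transcript counted as noncoding, ENST00000507614, was at 9.93, 5.12 and 6.86 FPKM at 0 h and at 0, 0 and 3.06 at 24 h. Of the 38 genes, 31 kept the same top transcript in all 0 h and 24 h libraries, with assembled models of the same nearest annotated transcript counted together. The share over all genes was not computed. In CHCHD4, TIMM9 and TIMM23B the top transcript differed already between the 0 h libraries.

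**Figure D4:**
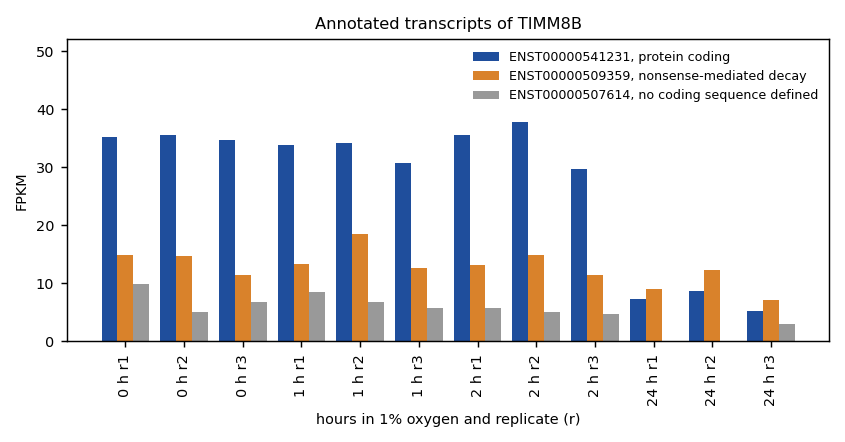
Bars are FPKM of the annotated TIMM8B transcripts in each library, by hours in 1% oxygen. The coding transcript is highest in every library up to 2 h and falls below the nonsense-mediated decay transcript in the 3 libraries at 24 h.

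Other genes of the pathway, from a list of 18 import and quality-control factors, were mixed at 24 h, with 8 lower, 4 higher and 6 not passed, and a median log2 fold change of -0.38. ATF5, a transcription factor linked to mitochondrial protein stress, fell by 1.59 ± 0.10 on the log2 scale (adjusted p = 3.1e-07). MIPEP, a second matrix peptidase, fell by 1.30 ± 0.10 (adjusted p = 1.1e-06). IMMP2L, a subunit of an inner-membrane peptidase, rose by 1.36 ± 0.19 (adjusted p = 8.4e-05), the 1 rise of the list above 2-fold, and SPG7, a protease subunit of the inner membrane, rose by 0.69 ± 0.11 (adjusted p = 0.00024). The matrix protease LONP1 rose by 0.36 ± 0.08 (adjusted p = 0.0021) and CLPX, the unfoldase of the other matrix protease, rose by 0.51 ± 0.11 (adjusted p = 0.0022). AFG3L2 fell by 0.89 ± 0.11 (adjusted p = 4.3e-05). DNAJA3, TIMMDC1, DNAJC15, HTRA2 and TRAP1 also fell, by 0.37 (TRAP1) to 0.94 (DNAJA3). The 6 that did not pass lay between -1.14 (IMMP1L, adjusted p = 0.12) and 0.03 (ROMO1), with CLPP at -0.36 (adjusted p = 0.017). Of the mitochondrial ribosomal proteins 60 of 76 fell and 0 rose, with a median of -0.84. Of 79 tested nuclear-encoded respiratory chain subunits 29 fell and 3 rose, with a median of -0.31. More than 2-fold falls were made by 52.6% of import genes, 31.6% of the ribosomal proteins and 1.3% of the respiratory chain subunits, and these lists were not compared by a test.

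Technical measures were as follows. The FPKM tables used here hold no read counts, so precision is judged by how far replicates spread. All 8 genes chosen as a check of hypoxia rose at 24 h, by log2 fold changes of 1.90 (VEGFA) to 5.45 (ANKRD37). The 6 colon epithelium markers were at 5.64 FPKM (CDX2) or higher in every library, EPCAM at 213 to 354 and KRT8 at 786 to 1190.0. At 24 h CDH1 rose by 1.76 ± 0.13 (7.42 to 26.3 FPKM on average; adjusted p = 8.5e-07) and KRT19 by 0.99 ± 0.11 (489.5 to 970.5; adjusted p = 1.7e-05) on the log2 scale, and EPCAM, KRT8, KRT18 and CDX2 did not pass. The part of these in the falls of import genes was not tested. Over the 12 libraries the leukocyte and endothelial markers PTPRC, CD3E, LYZ, PECAM1 and VWF were at most at 0.199. Of the fibroblast markers COL1A2 and DCN were at most at 0.0315 FPKM, and COL1A1 rose at 24 h (1.92 to 6.87 on average). In the replicate 3 libraries the 10 import genes with transcripts under 1000 bases were on median lower than in the other libraries of the same time, though not each of them: TIMM17B was highest in replicate 3 at 1 h and 2 h, and TOMM7 at 1 h. On the log2 scale the median deviation of the 10 was -0.13 for the 0 h library, -0.32 for the 1 h one, -0.44 for the 2 h one and -0.34 for the 24 h one. For the 28 longer genes it was -0.06, -0.15, -0.12 and -0.10. The part of this in the falls at 24 h was not tested. Without all replicate 3 libraries, a setting chosen after seeing the data, 30 genes fell, and HSPE1 was at -1.63 against -1.71 with them.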

How the data were processed

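Strand-specific libraries of polyadenylated RNA from HCT116 cells were sequenced as paired reads. According to the paper's methods and the labels, the authors aligned reads to hg19, built transcript models per sample with Cufflinks, combined these with Ensembl and deposited FPKM per transcript and library; the notes also name CASAVA 1.8.2. No normalisation between libraries is named for these values, counts were not analysed here, and 3 libraries per time limit the precision. No column was left unmatched to a sample.

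Here FPKM of transcripts with class code = or j were summed per gene name, without rescaling. Genes above 0.5 FPKM in at least 3 libraries were tested on log2(FPKM + 0.5) with limma 3.58.1 in R 4.3.3 (lmFit, eBayes with trend, two-sided, Benjamini-Hochberg over all genes tested); the noncoding share was tested the same way without trend on genes of at least 1 FPKM on average. "Fell" and "rose" mean an adjusted p under 0.01, and the 2-fold limit follows the study. Every printed adjusted p is from these limma fits. Transcript types are from GENCODE 44 on GRCh37, matched for 294 of 337 member transcripts. The fit was tested on simulated data. Tables and figures used Python 3.11.15 (pandas 2.3.3, numpy 2.4.6, matplotlib 3.10.9, scipy 1.17.1).

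The members and lists were chosen with earlier results of these data known. Members that passed against 0 h, and the highest member of each role, are given library by library; other genes come from fixed lists. The ratios and the TIMM23 sum were chosen after values were seen. 11 members share an assembled locus with other gene names. Alternatives covered pseudocounts, filters, transcript sets, scalings, the replicate block, single libraries left out and, added after seeing the data, all replicate 3 libraries left out and transcript sets for the ratios. Promoter windows for GRPEL1, TIMM8B and TOMM5 were not used here.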

Additional observations from a re-analysis of the deposited data

Results flagged for a closer look

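The effects at 2 h and at 24 h, both relative to 0 h, differed for 16 import genes, by limma's test of 24 h against 2 h (adjusted p under 0.01 and more than 2-fold). All 16 were lower at 24 h. By the same rule 7.28% of all genes were lower and 1241 of 16680 were higher. The log2 fold change from 2 h to 24 h was -1.84 for TOMM40, -1.70 for TIMM8A, -1.66 for HSPE1, -1.66 for TIMM10, -1.57 for TIMM8B and -1.46 for TIMM17A. It was -1.42 for TIMM23, -1.35 for TOMM5, -1.33 for TIMM13, -1.21 for TOMM6 and -1.15 for TIMM21. It was -1.09 for TIMM10B, -1.08 for HSPD1, -1.08 for TOMM40L, -1.06 for CHCHD4 and -1.01 for TIMM44. With each library rescaled to TPM, 0 import genes were lower at 24 h than at 2 h at an adjusted p under 0.01. Their median log2 fold change was then -0.65, against -0.91 as reported (-0.77 against -0.88 relative to the median of all genes). With TPM computed after dropping transcripts under 300 bases 31 were lower at 24 h than at 2 h. This contrast uses the same 24 h libraries as the falls against 0 h.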

How the results depend on the processing

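The count of import genes lower at 24 h was 27 to 29, against 31 with all libraries, when single libraries were left out, and their median log2 fold change between -1.05 (without 0 h replicate 3) and -0.95 (without 0 h replicate 1). With the added fold limit 20 genes were lower than at 0 h and 16 than at 2 h, and at an adjusted p under 0.05 1 gene (TOMM20) was higher than at 0 h. The count higher at 24 h was 0 to 1 without single libraries, TOMM20 passing without 24 h replicate 1. The median was -0.95 with median-of-ratios scaling, -1.71 with TPM and -1.11 with TPM computed after dropping transcripts under 300 bases; the medians of all genes in these settings were 0.01, -0.78 and -0.13. With TPM 0 genes were lower at 24 h than at 2 h (median -0.65, against -0.91 as reported) and TOMM20 turned to -0.57 against 0 h. With TPM computed without those short transcripts 31 were lower than at 2 h, and with median-of-ratios scaling 29. The cause was not tested.

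Some values near 0 turned: MTX3 to 0.0057 with transcripts above 0.5 FPKM in at least 3 libraries and 0.055 with median-of-ratios scaling, with -0.28 to 0.15 over single libraries left out, and at -0.47 with class code = alone; TOMM7 to 0.11 and 0.012 in the same settings and 0.053 without all replicate 3 libraries, with -0.12 to 0.063 over single libraries left out; and TIMM17B, with -0.22 to 0.022. The count that gained noncoding share was 0 to 2 without single libraries and 2 (TIMM8B and TIMM21), with 1 lost (PAM16), under the transcript filter; the cause was not tested.

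With the replicate block 31 genes were lower at 24 h than at 0 h and 31 than at 2 h, and 0 gained noncoding share (TIMM8B, adjusted p = 0.014). Same-numbered libraries deviated together with r over 0.1 in 10 of 18 pairs (-0.08 to 0.43), and 9 of 12 libraries correlated best with a same-numbered one. Pairs of replicate 1 or of replicate 3 among 0, 1 and 2 h were at 0.25 to 0.43, but pairs with a 24 h library at -0.08 to 0.24. As the rule asked for r over 0.1 in every pair, the numbers were not taken as pairs. The block moved no other count by over 1.5 times. The ratio of TIMM17A to TIMM17B at 24 h was 6.59 under the transcript filter, against 5.80 as reported. Of 722 single-gene values at 24 h under alternatives, 677 kept direction and side of the threshold.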
